A study of Mus musculus with 6 samples.

Results

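The histone genes of C2C12 cells are described here before and after the cells became myotubes. C2C12, a cloned line of mouse muscle precursors, stops dividing and fuses into multinucleated myotubes once serum is reduced. The genes were chosen by name from the 54525 genes listed. They were every symbol beginning Hist1h, Hist2h, Hist3h or Hist4h, without 1 row that ends in -ps, together with *H1f0*, *H2afx*, *H2afz*, *H2afy*, *H2afv*, *H3f3a* and *H3f3b*. This gave 76 genes. Of these, 69 are named for the clusters and are called clustered here, and 7 are variant histone genes elsewhere in the genome. The clustered genes comprise 6 H1, 20 H2A, 18 H2B, 12 H3 and 13 H4 genes, and 56 of them lie in the Hist1 set, 10 in Hist2, 2 in Hist3 and 1 in Hist4. RNA from 3 cultures of myoblasts (day 0, D0) was compared with RNA from 3 cultures kept for 5 days in horse-serum differentiation medium (D5). All 6 cultures were wild type and had no other treatment, and their labels name the cell type as myoblasts at D5 as well as at D0. Gene counts per library ran from 36555048 to 40895840 at D0 and from 25449759 to 25811300 at D5. All 10 myotube marker genes rose from D0 to D5, beside 42.2% of all genes tested, with a median log2 fold change of 7.98. Of 6 myoblast markers, 4 were lower at D5, beside 40.8% of all genes tested, and 2 (*Vcam1* and *Des*) were higher. Markers of other cell types were low throughout: the summed level was at most 3.59 CPM (counts scaled to a library total of 1000000) for 6 endothelial markers, 3.57 CPM for 6 immune markers and 0.285 CPM for 5 adipocyte markers.

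DNA is wound around octamers of the core histones H2A, H2B, H3 and H4, and the linker histone H1 binds where the DNA enters and leaves. Most histone protein is made in S phase from the clustered, replication-dependent genes. Their short intronless mRNAs end in a conserved hairpin rather than in a poly(A) tail, and the hairpin-binding protein SLBP is needed to process and translate them. Variant genes such as those for H3.3, H2A.Z and H1.0 usually contain introns or a polyadenylation site, are transcribed outside S phase and supply histones in cells that no longer replicate their DNA. A muscle precursor that forms a myotube leaves the cell cycle for good.

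The hairpin is shown first because it marks most replication-dependent histone mRNAs. Transcripts of GENCODE release M21 on GRCm38 were searched for a 16-base hairpin with a fully paired 6-base stem and a 4-base loop. The stem had to begin GG and end in T, and the loop had to begin TT. This hairpin was found in 80 genes of that annotation, and 45 of the 76 histone genes were among them. These were 44 clustered genes and the variant *H2afx*. Only 6 spellings of the hairpin were found in clustered genes, and the most common was carried by 26 of them, of every type except H4, whose genes used other stems. One example of each spelling follows, with the hairpin in capitals and 5 bases on either side.
Hist1h1c (chr13:23739507-23739532, + strand): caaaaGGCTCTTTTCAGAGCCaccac
Hist1h3c (chr13:23745042-23745067, - strand): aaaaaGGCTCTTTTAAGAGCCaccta
Hist2h2ac (chr3:96220413-96220438, - strand): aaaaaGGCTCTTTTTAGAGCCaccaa
Hist1h4d (chr13:23581945-23581970, + strand): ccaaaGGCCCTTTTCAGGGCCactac
Hist1h4i (chr13:22040961-22040986, - strand): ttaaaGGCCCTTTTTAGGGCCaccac
Hist1h4j (chr13:21735432-21735457, + strand): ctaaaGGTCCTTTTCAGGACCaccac
H2afx (chr9:44335235-44335260, + strand): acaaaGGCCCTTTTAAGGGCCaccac
The capitals of *Hist1h4d* occur in 7 H4 genes, those of *Hist1h3c* in 6 genes, those of *Hist1h4i* and of *Hist1h4j* in 2 H4 genes each, and those of *Hist2h2ac* and of *H2afx* in that gene alone. Among the variants, only *H2afx* has the hairpin.

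Promoters are shown for 3 genes that recur below. Hist1h1c kept the largest share of its D0 level among the called-lower clustered genes, and *Hist2h2ac* and *Hist1h2ac* each face an H2B gene that moved differently from them. Because the transcripts of these H2A and H2B genes start 238 and 250 bases apart on opposite strands, each H2A window below spans the whole stretch between the pair. The windows run from 250 bases before to 50 bases after the RefSeq start on GRCm38.p6, and capitals mark the box CCAAT, the TATA box TATAAA, the H1 box AAACACA and the octamer ATTTGCAT, each searched on both strands.
Hist1h1c (chr13:23738557-23738856, + strand): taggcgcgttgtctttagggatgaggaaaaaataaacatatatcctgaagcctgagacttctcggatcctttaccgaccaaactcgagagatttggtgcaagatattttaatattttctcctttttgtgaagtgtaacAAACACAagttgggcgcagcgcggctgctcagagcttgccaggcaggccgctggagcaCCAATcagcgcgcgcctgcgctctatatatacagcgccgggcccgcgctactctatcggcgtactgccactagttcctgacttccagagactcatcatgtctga
Hist1h2ac (chr13:23683910-23684209, - strand): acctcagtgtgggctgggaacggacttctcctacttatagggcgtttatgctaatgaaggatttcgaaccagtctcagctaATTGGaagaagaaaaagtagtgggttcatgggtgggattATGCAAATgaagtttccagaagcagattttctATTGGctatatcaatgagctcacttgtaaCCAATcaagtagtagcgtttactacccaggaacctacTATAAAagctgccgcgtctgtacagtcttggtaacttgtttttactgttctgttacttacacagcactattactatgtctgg
Hist2h2ac (chr3:96220831-96221130, - strand): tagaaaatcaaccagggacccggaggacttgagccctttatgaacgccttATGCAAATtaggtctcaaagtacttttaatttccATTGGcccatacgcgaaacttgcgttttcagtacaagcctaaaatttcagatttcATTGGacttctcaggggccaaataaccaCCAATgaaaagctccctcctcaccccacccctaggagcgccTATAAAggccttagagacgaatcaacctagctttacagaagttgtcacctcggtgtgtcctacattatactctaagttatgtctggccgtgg
Promoters were found in the RefSeq table for 68 of the 76 genes, with 2 windows for *Hist1h2be*. CCAAT or its reverse complement occurred in every one of the 6 clustered H1, 18 H2A, 17 H2B and 10 H3 promoters and in 3 of 12 H4 promoters, against 37.4% of all 32851 promoters. The octamer occurred in 7 of the 18 H2A and 7 of the 17 H2B promoters, against 1.7% of all, and in none of the H1, H3 and H4 promoters of the clusters. AAACACA occurred in 5 of the 6 H1 promoters, against 7.2% of all, and TATAAA in 8 of 12 H4 and 11 of 18 H2A promoters, against 13.6% of all. Head-to-head H2A and H2B windows overlap, so some matches are counted in both types.

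Clustered histone transcripts fell to 13.1% of their D0 level by D5. Their summed level was 7520, 7040 and 7510 CPM in the D0 libraries and 956, 957 and 970 CPM in the D5 libraries, with library totals adjusted by the trimmed mean of M-values (TMM). The mean therefore went from 7360 ± 272 to 961 ± 7.55 CPM (SD, n = 3), a ratio of -2.94 on the log2 scale. The D0 and D5 libraries did not overlap. As a share of all gene counts the clustered genes went from 0.725 to 0.777% at D0 to 0.0927 to 0.0941% at D5. In these bulk libraries, fewer cells that make a transcript and less of it per cell cannot be told apart.

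Of the 69 clustered genes, 64 had enough counts to be tested and 60 of those were lower at D5 in edgeR's quasi-likelihood test (Benjamini-Hochberg adjusted p under 0.05), with 3 higher and 1 without a call. Across all 16290 genes tested, 40.8% were lower and 42.2% higher. All D5 values were under all D0 values for 60 clustered genes as well, where 41.1% of all genes tested had that order. All D5 values were over all D0 values for 3, where 42.2% of all genes had that order. The median log2 fold change of the clustered genes was -4.28 (range -6.96 to 1.16, or from -6.71 for genes with D5 counts) beside 0.0 for all genes tested. It was -4.13 with the gene that had no D5 count set to its bound. The 5 genes not tested were *Hist1h1t*, *Hist1h2aa*, *Hist1h2ba*, *Hist2h2aa1* and *Hist2h3c1*. The first is known for its expression in testis, as are *Hist1h2aa* and *Hist1h2ba*. These 5 genes reached at most 9 counts in any library, and 3 of them were at 0 in all 6 libraries. Of the exonic bases of *Hist2h2aa1* and *Hist2h3c1*, 90.3% and 100% lie in exons of overlapping genes on the same strand. Reads there cannot be assigned to either gene, so the 0 counts of *Hist2h2aa1* and *Hist2h3c1* do not show that they were silent. Scaling by the ERCC spike-in RNAs, which took between 0.720% and 2.09% of each library, moved the median of all genes to -0.58. Calls over all genes numbered 13510 with 49.2% lower under the usual scaling and 5560 with 67.4% lower under the spike-in scaling. Of the clustered genes, 58 were still lower under it, and *Hist1h1c* and *Hist1h2bc* no longer passed, at -1.02 (adjusted p = 0.11 in edgeR's test) and -1.18 (adjusted p = 0.065).

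**Figure D1:**
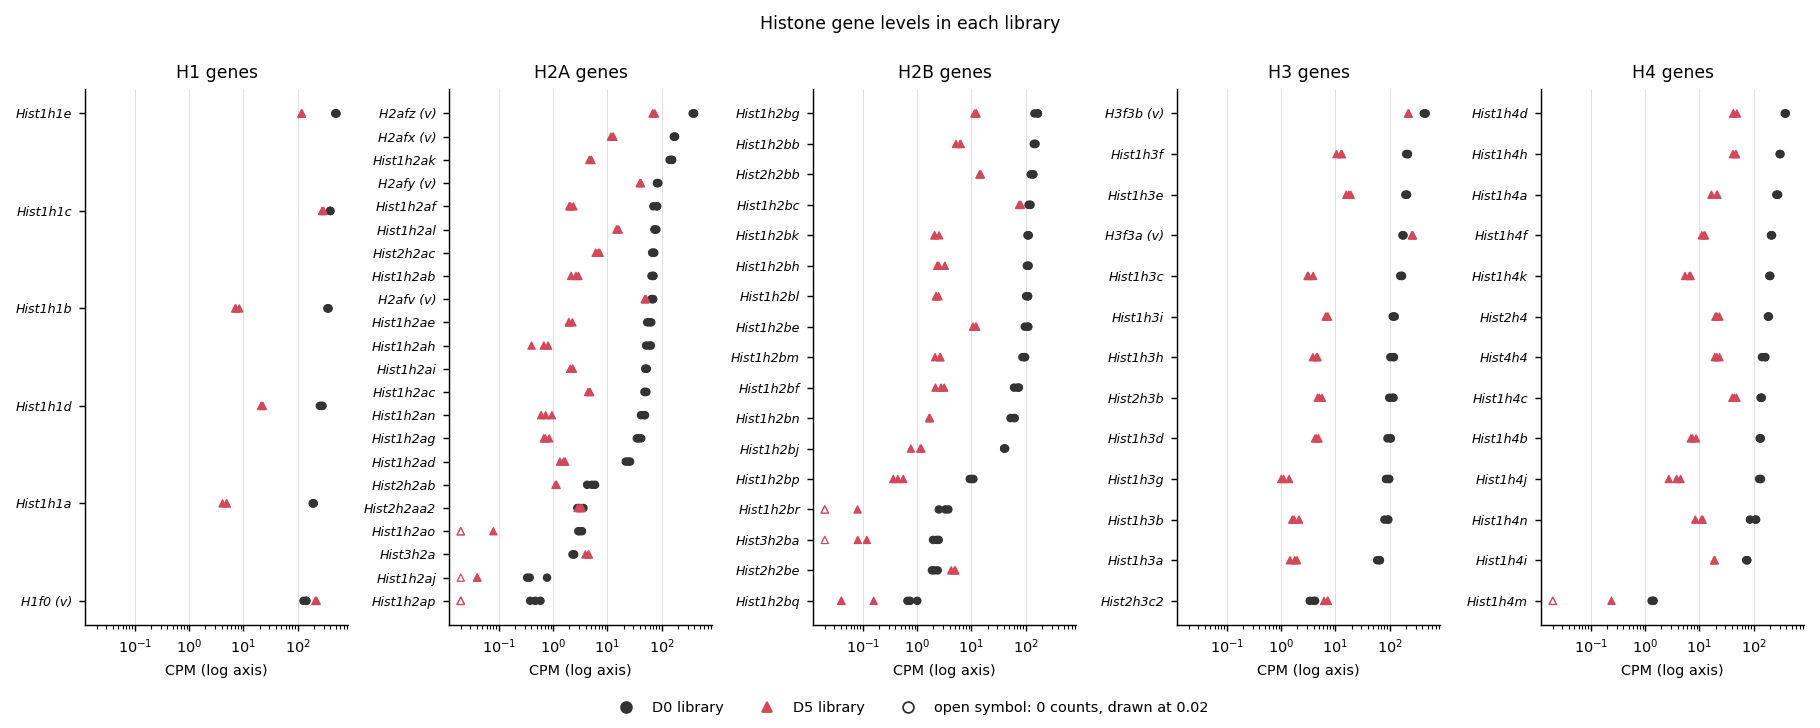
Level of each tested histone gene in each library, in CPM on a log axis, by histone type and ordered by mean D0 level. Circles are the 3 D0 libraries and triangles the 3 D5 libraries, (v) marks variant genes and open symbols are libraries with 0 counts. D5 triangles lie left of the D0 circles for 60 of 64 clustered genes and 5 of 7 variants.

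The Hist1 set on chromosome 13, which holds the bulk of the genes between 21715763 and 23934851 (GRCm38), was lower as a whole: all 53 tested genes passed the test downwards, with a median of -4.62 (-4.53 with *Hist1h2ap*, which had no D5 count, at its bound). *Hist1h2al*, annotated as a pseudogene, belongs to the set by name but lies outside that stretch, from 51202727 to 51203065. The Hist2 set on chromosome 3 was mixed. It had 5 lower, 2 higher and 1 uncalled gene among 8 tested, with a median of -2.65. Among all genes tested, 40.8% were lower and 42.2% higher. The single Hist4 gene, *Hist4h4*, changed by -2.88, and the Hist3 pair split into *Hist3h2ba*, which was lower, and *Hist3h2a*, which was higher at 0.86. Summed over the pair, Hist3 transcripts stood at 4.64 ± 0.229 CPM before and 4.39 ± 0.395 CPM after differentiation (SD, n = 3), and those of the Hist1 set at 6680 ± 249 and 872 ± 6.72 CPM.

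By type, the summed level retained at D5 was 25.6% for clustered H1, 11.3% for H2B, 11.1% for H4, 6.75% for H2A and 5.19% for H3. Called-lower genes were 5 of 5 tested for H1, 16 of 18 for H2A, 16 of 17 for H2B, 10 of 11 for H3 and 13 of 13 for H4. Among all genes tested, 40.8% were lower. The medians of the genes were in another order, at -3.64 for H1, -4.63 for H2A (-4.26 with the gene at 0 set to its bound), -4.67 for H2B, -4.46 for H3 and -3.30 for H4.

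Linker histone genes were lower by very different amounts. *Hist1h1c* encodes the H1.2 subtype. It read 396, 401 and 396 CPM at D0 and 301, 288 and 281 CPM at D5, which did not overlap. It was lower by a log2 fold change of -0.46 (SE 0.033, adjusted p = 7.9e-14 in edgeR's quasi-likelihood test), so 72.9% of the D0 level remained. *Hist1h1e*, which encodes H1.4, read 517, 490 and 514 CPM at D0 and 120, 118 and 118 CPM at D5. Its log2 fold change was -2.09 (SE 0.034, adjusted p = 2.7e-30), which left 23.4%. The other somatic H1 genes dropped further. *Hist1h1b* went from 366, 352 and 370 CPM to 8.43, 7.06 and 7.31 CPM, a log2 fold change of -5.57 (SE 0.052, adjusted p = 1.3e-36). *Hist1h1d* went from 274, 256 and 287 CPM to 21.6, 21.2 and 22.9 CPM, a log2 fold change of -3.64 (SE 0.047, adjusted p = 5.9e-33). *Hist1h1a* changed by -5.37 on the log2 scale, to 2.41% of D0. On the transcripts-per-million scale (TPM, counts per exonic base rescaled to a sum of 1000000), *Hist1h1b* was the first of the clustered H1 genes at D0 with 37.4 ± 0.577% of their total, and 3.82 ± 0.266% at D5. *Hist1h1c* held 19.6 ± 0.359% of the clustered H1 total at D0 and 69.6 ± 0.283% at D5 (SD, n = 3). The order at D0 depends on annotated length, which is 743 bases for *Hist1h1b* and 1930 for *Hist1h1e*. By counts *Hist1h1e* came first at D0 with 29.3 ± 0.379%, and *Hist1h1b* held 20.9 ± 0.166%. Between them stood *Hist1h1c*, with 23.0 ± 0.585% of counts at D0 and 65.4 ± 0.576% at D5. Over all clustered genes its share of TPM was 2.31 ± 0.107% and then 18.3 ± 0.941%.

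Several of the largest falls were in H2A genes. The fitted change was -6.52 for *Hist1h2ah*, which read 58.8, 51.6 and 63.4 CPM at D0 and 0.676, 0.811 and 0.402 CPM at D5 (SE 0.12, adjusted p = 1.0e-28 in edgeR's quasi-likelihood test). *Hist1h2an* went from 47.7, 41.6 and 49.3 CPM to 0.955, 0.730 and 0.602 CPM, a change of -5.91 (SE 0.11, adjusted p = 1.7e-28). Each library of D5 was below 1 CPM for these genes. Of the 50-base stretches of *Hist1h2ah* and *Hist1h2an*, 90.7% and 85.8% occur in another gene, so their reads could be split among copies. *Hist1h2ao* read 3.41, 2.92 and 3.08 CPM at D0 and was at 0 in D5 replicates 2 and 3 and at 0.0796 CPM in replicate 1. With 375 counts at D0 and 2 at D5 the ratio of D0 to D5 was 117 (95% exact interval 32.1 to 968, counting error only). *Hist1h2ap* had 57 counts at D0 and none at D5, so it was at least 3.98-fold lower, with 3 counts in a library as the floor. Of its 50-base stretches, 93.1% occur in another gene. *Hist1h2aj*, annotated as a pseudogene, had 58 and then 2 counts, a ratio of 18.1 (95% exact interval 4.78 to 153). The remaining lower H2A genes of the Hist1 set were between -2.31 and -5.67. In ascending order of loss they were *Hist1h2al* (-2.31, also annotated as a pseudogene), *Hist1h2ac* (-3.43), *Hist1h2ad* (-3.97), *Hist1h2ai* (-4.53), *Hist1h2ab* (-4.73), *Hist1h2ae* (-4.84), *Hist1h2ak* (-4.92), *Hist1h2af* (-5.17) and *Hist1h2ag* (-5.67). In the Hist2 set, *Hist2h2ab* changed by -2.17 and *Hist2h2ac* by -3.38. *Hist2h2aa2* read 3.63, 2.80 and 3.13 CPM at D0 and 3.42, 2.84 and 3.13 CPM at D5, so the groups overlapped and it had no call (log2 fold change -0.02, SE 0.14, adjusted p = 0.9). All of its 50-base stretches occur in another gene as well.

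*Hist3h2a* was the H2A gene that was higher. It read 2.45, 2.40 and 2.28 CPM at D0 and 4.54, 4.50 and 3.94 CPM at D5, with no overlap and a log2 fold change of 0.86 (SE 0.13, adjusted p = 6.8e-07 in edgeR's quasi-likelihood test). Of its exonic bases, 33.0% lie in exons of overlapping genes on the same strand, *Trim17* among them, and reads there cannot be assigned to either. Under spike-in scaling its change was 0.31 and did not pass.

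*Hist1h2bc* stood apart among the H2B genes. It read 120, 113 and 123 CPM at D0 and 79.0, 75.5 and 81.6 CPM at D5. That was a log2 fold change of -0.59 (SE 0.039, adjusted p = 9.3e-15 in edgeR's quasi-likelihood test), which left 66.2% of the D0 level. It held 4.68 ± 0.113% of clustered H2B TPM at D0 and 39.5 ± 0.623% at D5 (SD, n = 3). *Hist2h2be*, a Hist2 gene with 2620 exonic bases and no 50-base stretch in common with any other gene, was higher. It read 2.40, 1.88 and 2.08 CPM at D0 and 4.89, 5.07 and 4.26 CPM at D5, with a log2 fold change of 1.16 (SE 0.14, adjusted p = 5.7e-09). The libraries did not overlap. Its level per length stayed small, at 2.80 TPM at D0 and 5.62 TPM at D5, and under spike-in scaling its change was 0.62 and did not pass. The largest fall in H2B was that of *Hist1h2br*, at 3.31, 2.52 and 3.77 CPM at D0 and 0, 0 and 0.0803 CPM at D5. Its 382 counts at D0 and 2 at D5 gave a ratio of 119 (95% exact interval 32.7 to 986). *Hist3h2ba* had 270 and then 5 counts, a ratio of 33.7 (95% exact interval 14.2 to 104). The others were lower by fitted log2 changes of -3.19 (*Hist1h2be*), -3.20 (*Hist2h2bb*), -3.26 (*Hist1h2bq*), -3.73 (*Hist1h2bg*), -4.46 (*Hist1h2bp*), -4.62 (*Hist1h2bb*), -4.67 (*Hist1h2bf*), -5.11 (*Hist1h2bn*), -5.22 (*Hist1h2bm*), -5.28 (*Hist1h2bj*), -5.34 (*Hist1h2bh*), -5.53 (*Hist1h2bl*) and -5.62 (*Hist1h2bk*).

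Clustered H3 genes encode the replication-dependent H3.1 and H3.2 proteins. *Hist1h3g* had the largest fall of the type. It read 94.7, 85.6 and 98.3 CPM at D0 and 1.11, 1.01 and 1.41 CPM at D5, a log2 fold change of -6.29 (SE 0.090, adjusted p = 7.0e-32 in edgeR's quasi-likelihood test), so 1.27% remained. *Hist1h3b* and *Hist1h3c* both changed by -5.60, *Hist1h3a* by -5.18, *Hist1h3h* by -4.71, *Hist1h3d* by -4.46, *Hist2h3b* by -4.41, *Hist1h3f* by -4.12, *Hist1h3i* by -4.08 and *Hist1h3e* by -3.52. *Hist2h3c2* was the H3 gene that was higher. It read 4.24, 3.95 and 3.37 CPM at D0 and 7.28, 6.20 and 7.19 CPM at D5, with no overlap and a log2 fold change of 0.84 (SE 0.11, adjusted p = 5.0e-08). Under spike-in scaling the change was 0.24 and did not pass. Of its 50-base stretches, 63.5% occur in another gene, so its reads could be split among copies.

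All 13 H4 genes, which code for the least varied core histone, were lower, but they retained different shares of their transcripts. *Hist1h4d* read 391, 373 and 385 CPM at D0 and 42.4, 49.0 and 42.1 CPM at D5, a log2 fold change of -3.10 (SE 0.044, adjusted p = 5.6e-32 in edgeR's quasi-likelihood test). *Hist1h4h* went from 313, 302 and 303 CPM to 41.5, 46.5 and 47.3 CPM, a log2 fold change of -2.76 (SE 0.041, adjusted p = 2.2e-31). *Hist1h4c* had the smallest fall of the H4 genes. It went from 141, 134 and 139 CPM to 40.5, 43.9 and 48.2 CPM, a log2 fold change of -1.64 (SE 0.044, adjusted p = 1.3e-24), which left 32.0%. *Hist1h4i* kept 25.3% (-1.98), while *Hist1h4j* kept 2.80% (-5.16) and *Hist1h4k* 3.16% (-4.98). The rest were *Hist2h4* (-3.13), *Hist1h4n* (-3.30), *Hist1h4a* (-3.79), *Hist1h4m* (-4.04), *Hist1h4b* (-4.10), *Hist1h4f* (-4.15) and, as given above, *Hist4h4*. Over all types, 31 of the 63 tested clustered genes with D5 counts were at or below 5% of their D0 level and 11 were above 20%.

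**Figure D2:**
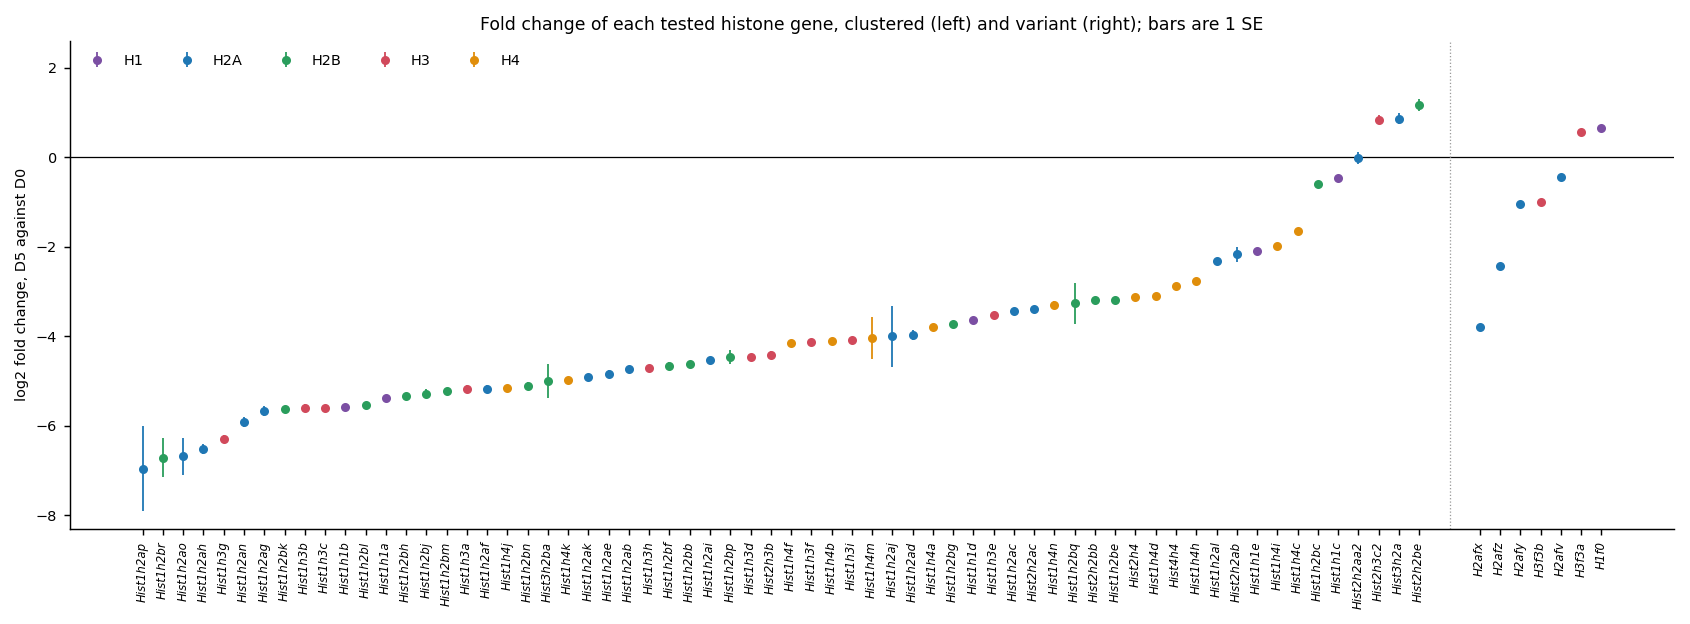
Log2 fold change of D5 against D0 for the 64 tested clustered genes in ascending order (left of the dotted line) and the 7 variant genes (right). Points are edgeR's fitted values with bars of 1 SE, coloured by histone type; most clustered genes lie between -6.96 (the fitted value of *Hist1h2ap*, at 0 in D5) and -1.64, while variants run from -3.80 to 0.65.

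The variant genes did not move together. All 7 were tested, 5 were lower and 2 were higher, beside 40.8% lower and 42.2% higher among all genes tested, and the median was -1.01. Summed, they gave 1470 ± 42.4 CPM before and 874 ± 5.31 CPM after differentiation (SD, n = 3), so 59.5% remained against 13.1% for the clustered genes. *H2afx* encodes H2A.X, the histone phosphorylated around DNA breaks. It read 175, 167 and 176 CPM at D0 and 12.7, 12.9 and 11.6 CPM at D5, a log2 fold change of -3.80 (SE 0.047, adjusted p = 2.3e-33 in edgeR's quasi-likelihood test). This variant with the hairpin kept 7.18%. *H2afz*, for H2A.Z, a variant found at promoters, read 395, 392 and 372 CPM at D0 and 68.1, 75.2 and 69.7 CPM at D5, a log2 fold change of -2.44 (SE 0.039, adjusted p = 1.2e-30). *H2afv*, the other H2A.Z gene, had a smaller loss, from 69.4, 69.1 and 64.5 CPM to 49.0, 51.6 and 49.4 CPM, a log2 fold change of -0.44 (SE 0.042, adjusted p = 7.4e-11). Under spike-in scaling it was -0.99 and did not pass (adjusted p = 0.13). Per exonic length *H2afv* and *H2afz* stood at 95.0 and 124 TPM at D5 after 143 and 753 TPM at D0. *H2afy* encodes macroH2A1, which carries a large extra domain. It went from 86.9, 81.9 and 83.6 CPM to 40.7, 41.5 and 39.5 CPM, a log2 fold change of -1.05 (SE 0.041, adjusted p = 1.9e-20).

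The genes for H3.3, which encode the same protein, moved in opposite directions. *H3f3a* read 180, 172 and 176 CPM at D0 and 268, 256 and 262 CPM at D5, a log2 fold change of 0.57 (SE 0.033, adjusted p = 2.8e-16 in edgeR's quasi-likelihood test). *H3f3b* read 461, 449 and 425 CPM at D0 and 218, 222 and 224 CPM at D5, a log2 fold change of -1.01 (SE 0.034, adjusted p = 5.1e-22). Neither overlapped between groups. Per length, *H3f3b* was above *H3f3a* at D0 (517 and 174 TPM), and they were 231 and 232 TPM at D5. *H1f0*, for H1.0, a linker histone known to build up in cells that stop dividing, read 143, 145 and 128 CPM at D0 and 224, 213 and 214 CPM at D5, a log2 fold change of 0.65 (SE 0.039, adjusted p = 8.9e-16). The rises of *H3f3a* and *H1f0* depended on the scaling: with the ERCC spike-in RNAs they were 0.0037 and 0.09 and did not pass.

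Within H1, H2A and H3 the variant share of transcripts was higher at D5. Shares within a library do not depend on scaling between libraries. The H3.3 genes made up 9.15, 9.76 and 8.60% of all H3 TPM in the D0 libraries and 61.9, 62.4 and 60.5% in the D5 libraries, which is 9.17 ± 0.581% and 61.6 ± 0.972% (SD, n = 3). Taken as counts without regard to length the same shares were 32.9 ± 1.45% and 88.0 ± 0.499%. The 4 H2A variants made up 18.7 ± 1.05% of H2A TPM at D0 and 43.6 ± 0.767% at D5, and 47.6 ± 1.75% and 76.7 ± 0.624% of H2A counts. The clustered part of H2A includes *Hist1h2al*, annotated as a pseudogene, at 778 of 5970 TPM at D0 and 141 of 343 TPM at D5. *Hist1h2al* was the largest clustered H2A entry at D5, and 67.6% of its stretches occur in another gene. The H2A share without it was not calculated. *H1f0* made up 4.92 ± 0.331% of H1 TPM and then 28.3 ± 0.226%, and 7.41 ± 0.533% and then 32.9 ± 0.19% of H1 counts. No D5 library overlapped a D0 library in any of these shares. No variant of H2B or H4 is among the genes chosen.

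**Figure D3:**
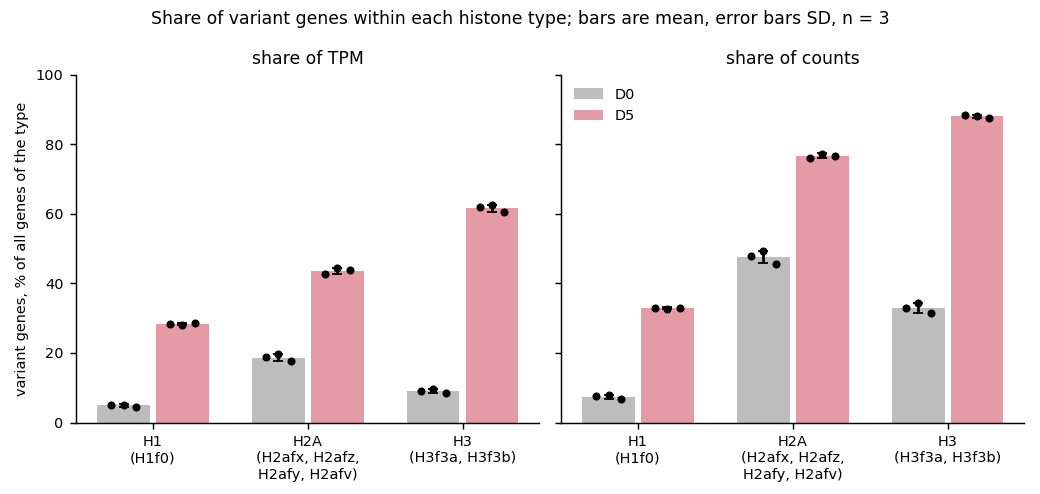
Variant genes as a percentage of all chosen genes of the same histone type, by TPM (left) and by counts (right), at D0 and D5. Bars are means of 3 libraries with SD, and points are libraries; for H3 the TPM share went from 9.17 to 61.6%.

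Clustered genes with a longer annotated 3′ end had a smaller median loss. The 20 tested clustered genes with at least 100 annotated bases after the hairpin had a median of -3.31 and kept 20.4% of their summed D0 level, and 2 of them were higher. Of that sum, 3260 CPM at D0 and 664 CPM at D5, *Hist1h1c* gave 398 and 290 CPM. *Hist1h1e* gave 507 and 119 CPM of it. The 21 tested genes with fewer than 100 bases after the hairpin had a median of -4.67 (-4.62 with *Hist1h2ap* at its bound), kept 6.39% and had none higher. Among all genes tested, 42.2% were higher. Across the 40 of those genes with D5 counts, the log2 fold change and the logarithm of the bases after the hairpin had a Pearson r of 0.42 and a Spearman rho of 0.49. This is a description over genes that share libraries and sequence, and both the 100-base and the 500-base divisions used here were chosen after the values were seen. Of the 23 tested genes without an annotated hairpin the median was -4.71. Among those, 4 had more than 500 bases annotated after the stop codon and a median of -1.93: *Hist2h2be* and *Hist1h2bc* at 1.16 and -0.59, but also *Hist1h2bq* and *Hist1h2br* at -3.26 and -6.71, which share 97.3% and 88.7% of their 50-base stretches with other genes. The other 17 with a known stop codon had a median of -4.98. In most of these 17, *Hist1h1b* and *Hist1h4k* among them, the annotation ends at the stop codon or within a few bases of it. A hairpin beyond that end could not be found, so these genes cannot be said to lack one. A polyadenylation hexamer, AATAAA or else ATTAAA, was within the last 40 bases of an annotated transcript in 15 tested clustered genes, with a median of -3.19, beside -4.53 for the 49 without it (-4.46 with *Hist1h2ap* at its bound). Over the annotation as a whole, 48.7% of 58797 protein-coding transcripts had it there.

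Exceptions ran both ways. *Hist1h1d* with 4884 bases after the hairpin changed by -3.64 and *Hist1h2bh* with 1214 by -5.34, while *Hist1h4h* with 46 changed by -2.76. A longer annotated exon also catches reads from further along the gene, and whether that moved with the loss was not tested. Annotated sequence shared between copies went in parallel with the result as well. The 18 tested genes with at least 75% of their 50-base stretches in another gene had a median of -4.91 (-4.62 with *Hist1h2ap* at its bound). The 7 with under 10% had a median of -3.13, with 6 lower and 1 higher, beside 40.8% lower and 42.2% higher among all genes tested. The part that read sharing played was not tested.

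**Figure D4:**
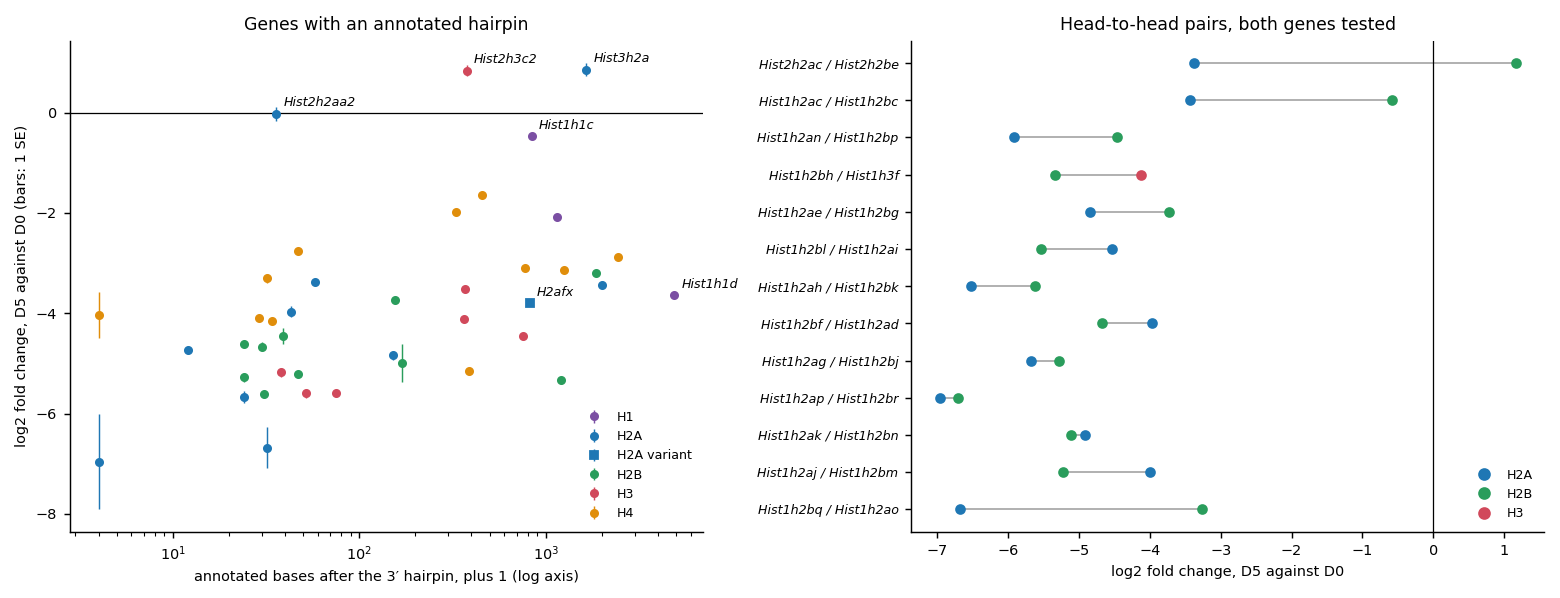
Left, log2 fold change (bars 1 SE) against the annotated bases after the hairpin, on a log axis, for the 41 clustered genes and *H2afx* that have a hairpin and were tested. Right, log2 fold changes of both genes of each head-to-head pair, joined by a line; *Hist2h2ac* and *Hist2h2be*, at the top, lie at -3.38 and 1.16, and *Hist1h2ap*, without a D5 count, is drawn at its fitted value.

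Genes that start close together on opposite strands did not all change alike. There are 14 such pairs with starts within 1000 bases, and in 13 both genes were tested. Without the pair of *Hist1h2ap*, which had no D5 count, 12 pairs could be compared. In 5 of them the log2 changes differed by at most 1, and in 3 they differed by over 2. *Hist2h2be* and *Hist2h2ac*, whose shared stretch is printed above, differed by 4.55. The ratio of *Hist2h2be* to *Hist2h2ac* counts was 0.0343, 0.0281 and 0.0285 at D0 and 0.719, 0.702 and 0.697 at D5. *Hist1h2bc* and *Hist1h2ac* differed by 2.84, with a count ratio of 2.40, 2.35 and 2.35 at D0 and 16.4, 17.1 and 17.4 at D5. In both pairs the H2B gene was the one that kept more, and the search found no hairpin in either H2B gene. The search covered annotated exons only. *Hist1h2bc* is annotated with 2 exons, so a hairpin between them would not have been found. The other tested H2B genes without a match fell more. They were *Hist2h2bb* (-3.20), *Hist1h2bq* (-3.26), *Hist1h2bn* (-5.11), *Hist1h2bl* (-5.53) and *Hist1h2br* (-6.71). The third pair, *Hist1h2bq* and *Hist1h2ao*, differed by -3.42 (*Hist1h2ao* minus *Hist1h2bq*), on few counts and with 97.3% and 93.5% of their stretches shared.

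Genes that make and handle histone mRNA and protein were also mostly lower. For the transcription and 3′ end processing of histone mRNA, 17 of 19 tested genes were lower and none higher, with a median of -0.72. Among all genes tested, 40.8% were lower and 42.2% higher. Under spike-in scaling 10 of the 19 were lower. Of all 16290 genes tested, only 5560 were called under that scaling, and 67.4% of those calls, not of the genes tested, were lower. *Slbp*, the hairpin-binding protein, went from 41.5 to 43.1 CPM in the D0 libraries to 13.7 to 14.2 CPM in those of D5, a log2 fold change of -1.61 (SE 0.052, adjusted p = 1.7e-22 in edgeR's quasi-likelihood test). *Npat*, the coactivator that binds at histone loci in S phase, changed by -0.83 and its partner *Casp8ap2* by -1.13. *Eri1*, an exonuclease that acts on the hairpin, changed by -1.27, and *Cstf2*, of the cleavage complex, by -1.29. These changes were smaller than the median of the clustered histone genes.

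Histone chaperones were mostly lower too. Of 14 replication-coupled factors, 13 were lower and none higher, with a median of -1.61, beside 40.8% lower and 42.2% higher among all genes tested. The chromatin assembly factor subunits *Chaf1b* and *Chaf1a* changed by -4.62 and -3.41, and *Asf1b*, which hands them H3 and H4, by -3.48. *Mms22l*, which acts at stalled forks, changed by -3.33, *Nasp*, a chaperone of free H3 and H4, by -1.80 and *Asf1a* by -0.34. Of 16 replication-independent factors, 12 were lower and 3 higher, with a median of -0.48. *Hira* and *Cabin1*, of the complex that deposits H3.3, changed by -0.86 and -0.90, and the H3.3 partners *Daxx* and *Atrx* by -0.23 and -0.55. The 3 higher genes, named after their values were seen, were *Ubn1* (0.53, adjusted p = 1.1e-14 in edgeR's test) and *Ubn2* (0.14), of the same complex as *Hira*, and the chaperone gene *Nap1l4* (0.11). With the spike-in scaling all 3 turned to the other direction without passing, at -0.04, -0.42 and -0.45, and 6 of the 16 factors were lower. Of all 16290 genes tested, only 5560 were called under that scaling, and 67.4% of those calls, not of the genes tested, were lower. *Dek*, *Nap1l1* and *Hjurp* changed by -1.88, -1.32 and -1.32. Of 14 other histone variant genes in the files, 8 were at 0 in every library and 4 were tested, with 3 lower and none higher. *Cenpa*, the centromeric H3, changed by -4.75, *H1fx* by -1.38 and *H2afy2* by -0.36.

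S phase genes and RNAs without a poly(A) tail are given as measures of replication and of RNA capture. All 26 S phase genes were lower, beside 40.8% of all genes tested, with a median of -3.20. Their sum was 3660 ± 23.5 CPM before and 411 ± 11.2 CPM after differentiation (SD, n = 3). That left 11.2%, next to 13.1% for the clustered histone genes. By median the clustered genes fell further, at -4.28. They also fell further in summed TPM, from 38300 ± 1450 to 3150 ± 50.1, beside 2630 ± 48.2 and 288 ± 4.94 for the S phase genes (SD, n = 3). The largest falls were in the licensing factor *Cdc6* (-5.27), the cyclin *Ccna2* (-5.17) and the proliferation markers *Mki67* (-5.11) and *Top2a* (-4.91). Of 8 tested RNAs that carry no poly(A) tail and are not histone mRNAs, 2 were lower and 6 higher, with a median of 0.65. Among all genes tested, 42.2% were higher. Under spike-in scaling 1 of the 8 was called, upwards. Of all 16290 genes tested, 5560 were called under that scaling, and 67.4% of those calls were lower. *Vaultrc5* changed by 2.10, the Y RNAs *Rny3* and *Rny1* by 1.00 and 0.70 and *Rn7s2* by -0.66. How transcripts with and without a poly(A) tail were captured is not stated for these libraries, and its part in the histone values was not tested.

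**Figure D5:**
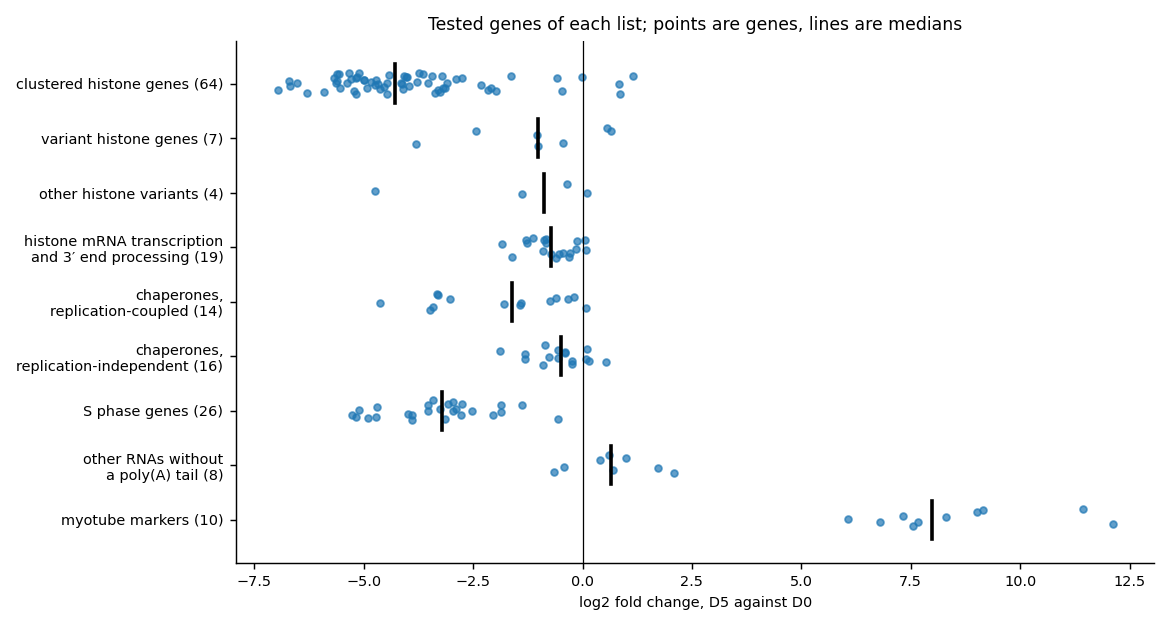
Log2 fold change of every tested gene of the histone groups and of the related lists, with the number of tested genes in parentheses and medians as black lines. The clustered histone genes (median -4.28) and S phase genes (-3.20) lie to the left, the variant genes (-1.01) and chaperones nearer 0, and the myotube markers (7.98) to the right.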

How the data were processed

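RNA of 3 D0 and 3 D5 C2C12 cultures was sequenced. The deposited values are raw read counts per gene that the authors obtained with featureCounts from reads aligned to GRCm38; the labels name TopHat2 as the aligner and the study's methods HISAT2. Strand setting, treatment of multi-mapping reads and poly(A) selection are not given in the sources used here, and near-identical histone copies can exchange reads. The 92 ERCC rows were kept out of library sizes. Genes were filtered with filterByExpr and tested with edgeR 4.0.16 (TMM factors, quasi-likelihood, Benjamini-Hochberg over all 16290 genes) in R 4.3.3. The fit was tested on simulated data. Libraries of a group differed by more than counting noise (chi-square per degree of freedom 2.28 to 3.71). A single-gene exact permutation test of 3 against 3 cannot go below p = 0.1, so none was used. TPM used GENCODE M21 exonic lengths; 76 of 76 genes matched. The members and lists were chosen with earlier results of these data known. Genes named with all values were the variants, the 6 clustered genes highest at D0 and at D5, and, among those with a mean of 100 counts, the 5 largest falls and up to 5 rises. Alternatives were DESeq2 1.42.0, upper-quartile, total-count and spike-in scaling, other filters, leaving out each library and a replicate block.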

Additional observations from a re-analysis of the deposited data

How the results depend on the processing

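Of 912 values of single histone genes under the alternatives, 902 kept their direction and their side of the threshold, 8 lost the call and 2 changed sign. The 8 were all under ERCC spike-in scaling (*Hist1h1c*, *Hist1h2bc*, *H2afv* and the 5 that were higher), where 62 histone genes were still lower, 0 of the 3 clustered and 0 of the 2 variant genes were higher by edgeR (0 at an unadjusted p under 0.05, no other tool was run with this scaling), and 5560 genes in all passed. The spike-in share varied within D5, and its part in these losses was not tested. The sign changes were both of *Hist2h2aa2*, which has no call: 0.06 without D0 replicate 1 and 0.05 without D5 replicate 2, in a range of -0.12 to 0.06 without single libraries. The chaperone genes *Ubn1*, *Ubn2* and *Nap1l4* turned to -0.04, -0.42 and -0.45 with spike-in scaling, and *Ubn2* and *Nap1l4* lost the call with total counts (0.05 and 0.02) and with no filter (0.08 and 0.05). The median of clustered genes was -4.99 with spike-in scaling and -4.13 with at least 10 counts in every library, which tests fewer genes, and -4.49 to -4.35 without single libraries. That of variants was -1.57 with spike-in scaling and -1.09 with total counts. The log2 ratio of summed clustered CPM was -3.51 with spike-in scaling, -3.02 with total counts, -2.99 with no filter and -2.98 to -2.93 without single libraries. Alternatives chosen after seeing the data were counts in place of TPM for the H3.3 share (32.9% and 88.0%) and clustered genes with under 10% of stretches shared (6 lower, 1 higher, median -3.13; fewer genes by construction). Same-numbered D0 and D5 libraries correlated at 0.02, 0.16 and 0.08 after removal of group means, so the numbers were not taken to pair them, and D5 replicate 1 correlated best with D0 replicate 3 (0.04). A replicate block gave 13558 calls against 13510 and changed no histone call.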

Other observations

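The clustered row left out for its -ps ending, which marks a pseudogene, held 52, 51 and 73 reads before differentiation and 2, 4 and 8 reads afterwards. *Hist1h1t*, too low to be tested, had between 1 and 9 counts per library, with a mean of 0.130 ± 0.0951 CPM for myoblasts and 0.134 ± 0.0220 CPM for D5 (SD, n = 3).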
